A study of Mus musculus with 24 samples.

Results

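The libraries compared here come from KPnull cells, a mouse pancreatic ductal adenocarcinoma (PDAC) line that its name marks as p53-null and the labels describe as a p53-ON system. They were given either wild-type p53 (labelled p53WT) or p53 with a mutated first transactivation domain (labelled p53TAD1m, TAD1m from here on). The libraries were chosen by label, 2 libraries of TAD1m and 2 of p53WT, and are 4 of the 24 samples of the series. Every expressed gene of the KPnull count table entered the comparison, which was 15075 of 55401 gene models. The table holds 10 libraries, and the other 6 (empty vector, p53 with a mutated second domain, TAD2m, and p53 with both domains mutated, TAD12m, 2 each) contributed to the estimate of the spread between replicates. All 10 were grown in DMEM with 10% serum on collagen-coated plates, with 1 µg/ml doxycycline given for 48 hours before harvest (vector included). The rest of the series, KPsh cells on or off doxycycline with Pcyt2 intact, knocked out or put back, is not used here. The labels do not name the residues that were mutated or the species of the introduced p53, do not say whether the line is 1 clone, and do not say that replicates were separate cultures, so p-values reflect only how much these libraries vary, possibly for technical reasons alone.

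The p53 protein is a transcription factor that binds DNA as a tetramer and switches on genes for cell cycle arrest, cell death, DNA repair and metabolism. Its N-terminal end holds a pair of transactivation domains that contact coactivators and the general transcription machinery; the first also binds MDM2, the ubiquitin ligase that marks p53 for degradation. In tumours of the pancreas p53 is lost or mutated often, and which of its target genes need which domain is a question that domain mutants of this kind are made to answer.

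The labels were checked first. Trp53 mRNA (chr11:69580359-69591873, mm10) stood at 6.12 and 4.54 CPM (counts scaled to a fixed library total) with vector, 649 and 686 with p53WT and 622 and 654 with TAD1m. The p53WT and TAD1m libraries overlapped, and their log2 difference was -0.07 ± 0.06 (SE, n = 2 per group, 95% interval -0.20 to 0.07, adjusted p = 0.448). Library totals lay between 13657592 and 19431249.5 counts over the 10 libraries. Fibroblast markers were below 1 CPM in all 10 libraries for 13 of 14 genes, endothelial markers for 9 of 12, acinar and endocrine markers for 18 of 20 and immune markers for 16 of 20, with Cd14 the highest at up to 160.4 CPM. The other immune markers not below 1 CPM throughout were Csf1r, Cd68 and Mrc1, at up to 21.2, 9.62 and 9.20 CPM. Of 12 ductal and PDAC markers 10 were expressed, led by Krt18. The epithelial markers Epcam and Cldn4 were below 1 CPM in all 10 libraries, and Sox9 was low, between 0.82 and 2.02 CPM. Mitochondrially encoded genes took 3.01% and 3.04% of counts with p53WT, 2.49% and 2.51% with TAD1m and 2.36% and 2.24% with vector; leaving them and Trp53 out before scaling gave 5861 called genes in place of the 5889 given next.

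Between TAD1m and p53WT 5889 of 15075 genes were called (39.1%, edgeR quasi-likelihood test, adjusted p under 0.05), 3075 higher with TAD1m (20.4%) and 2814 lower (18.7%), and the median log2 difference of all genes was 0.02. The split turned with the settings: 52.22% of called genes were higher here, 60.13% with library totals alone as scaling, 49.06% with RLE factors, 49.33% with DESeq2 and 47.73% with only the 4 libraries fitted. The 2 libraries of one group lay wholly above or below those of the other in 10706 genes (71%). Tested against a fold of 1.5 in place of no change, 961 genes were called, 464 higher and 497 lower. A gene not called in that test need not differ by less than 1.5-fold. Of the 136 genes named from here on 124 were counted as called in the first test, and 76 of those in the second. That count leaves out Stox2, Ano3, Cdk1 and Mki67, which were also called in the first test. Side by side, 7623 genes were called between p53WT and vector (50.6%) and 5494 between TAD1m and vector (36.4%), comparisons that share libraries with the first. Each list count below is to be read beside the shares over all genes, 20.4% higher and 18.7% lower. Most genes of DNA copying and mitosis were higher with TAD1m, and many p53 targets, secreted factors, matrix genes, keratins and MHC class I genes were lower. A second group of p53 targets stood at the p53WT level or above it. In bulk RNA, fewer cells of a kind and less RNA per cell cannot be told apart.

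**Figure D1:**
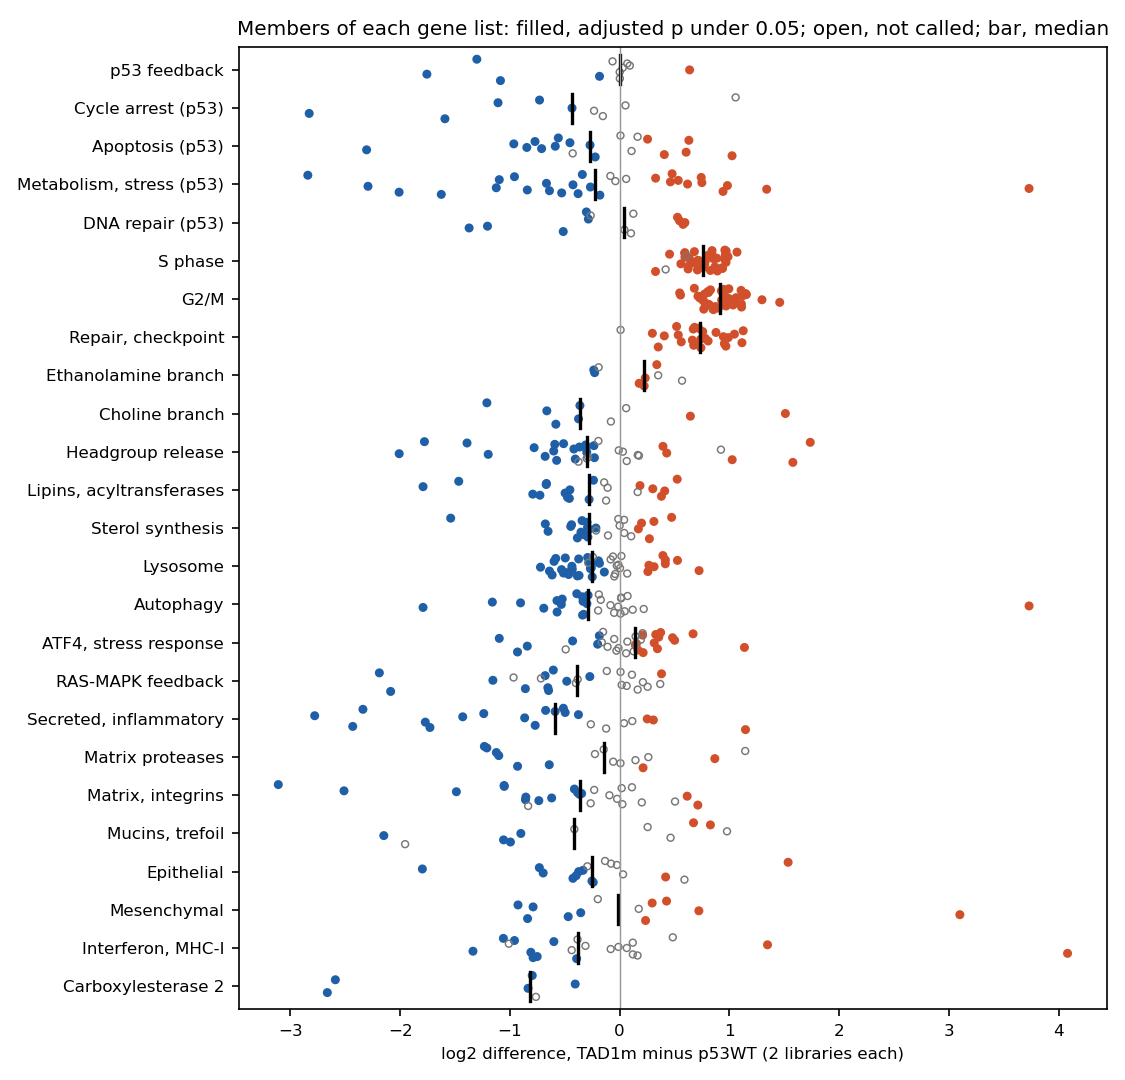
Each point is 1 gene of a named list, placed by its log2 difference TAD1m minus p53WT (x axis); filled points passed adjusted p under 0.05, open points did not, and bars mark list medians. The S phase, G2/M and repair lists lie to the right of 0 (medians 0.76, 0.91 and 0.73), while p53 target lists hold called genes on both sides.

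Promoter sequence is given for p53 target and cell cycle genes chosen by the motifs found in it. RefSeq promoter windows (build GRCm38.p6, the assembly behind mm10) were searched over the 250 bases before each annotated start for the p53 element, meaning a pair of adjoining 10-base p53 sites, at most 1 base apart, with their core C and G intact and at most 1 mismatch in all; the 10-base site reads the same on both strands. It was in 29 of 32851 windows of all genes (0.09%). Among the p53 lists below it was found in Ccng1 (1 of 10 feedback genes with a window) and Cdkn1a (1 of 11 arrest genes), and in none of the 14 apoptosis, 27 metabolism or 8 repair genes with a window; p53 elements also lie in introns and far upstream, which were not searched. The Cdkn1a stretch (chr17:29090888-29090978, plus strand) lies ahead of the start of a longer Cdkn1a transcript, upstream of the gene model in the count table, and the Ccng1 stretch is chr11:40755422-40755521 (minus strand). Capitals mark the p53 element, which starts 51 bases before the annotated start in Cdkn1a and 195 in Ccng1, each with 1 mismatch.
Cdkn1a: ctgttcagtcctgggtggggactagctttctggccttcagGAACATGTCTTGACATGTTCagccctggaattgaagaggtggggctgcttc
Ccng1: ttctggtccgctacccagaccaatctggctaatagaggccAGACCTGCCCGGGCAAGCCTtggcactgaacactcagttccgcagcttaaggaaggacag
Both genes fell with TAD1m, to different depths.

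Cdkn1a encodes p21, the CDK inhibitor through which p53 stops the cell cycle (chr17:29093781-29100727). It stood at 401 and 358 CPM with p53WT, 54.4 and 52.5 with TAD1m and 38.7 and 47.5 with vector. Both TAD1m libraries were far below both p53WT libraries and just above both vector libraries, and the log2 difference from p53WT was -2.83 ± 0.08 (SE, adjusted p = 1.59e-12). Against vector it was 0.32 (adjusted p = 0.00929), beside 3.15 for p53WT. Of 13 genes in the arrest list 9 passed the expression filter, of which 5 fell and 0 rose (median -0.43); without TAD1m replicate 1 the number that fell was 3. Btg2, an antiproliferative factor, fell by 1.59 on the log2 scale, from 80.2 and 88.9 CPM to 28 and 28.1. Plk2, a polo-like kinase, fell from 275 and 264 CPM to 125 in both (-1.11 ± 0.05), with vector at 109 and 108. Gtse1, which binds p53 and shuttles it out of the nucleus, stood at 114 and 111 CPM with p53WT, 118 and 114 with TAD1m and 73.1 and 78 with vector, a log2 difference of 0.05 (95% interval -0.08 to 0.19).

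The feedback list holds the genes that act on p53 itself. Of 11 members 1 rose, 4 fell and 6 were not called. Mdm2 (chr10:117688875-117710758) stood at 267 and 272 CPM with p53WT, 82.6 and 76.9 with TAD1m and 56.4 and 56.6 with vector, so that TAD1m lay between the other groups and close to vector (-1.76 ± 0.06 from p53WT, adjusted p = 5.70e-12). Ccng1, cyclin G1, which recruits a phosphatase to MDM2, took a middle level: 624 and 651 CPM with p53WT, 312 and 289 with TAD1m and 83 and 78.5 with vector (-1.09 ± 0.08 from p53WT, adjusted p = 9.71e-08, and 1.89 from vector). Trp53inp1, a stress protein that links p53 to autophagy and cell death, was likewise in between, at 129 and 133 CPM with p53WT, 51.9 and 54.5 with TAD1m and 6.33 and 6.51 with vector. Pml, the scaffold of PML nuclear bodies, rose from 83.8 and 87.8 CPM to 130.2 and 137 (0.64 ± 0.06). Mdm4, the partner of MDM2, differed by 0.00 (95% interval -0.15 to 0.15) and Trim24, another ubiquitin ligase for p53, by 0.07 (-0.10 to 0.24). Neither was raised by p53WT over vector, with log2 differences of -0.14 and -0.22.

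**Figure D2:**
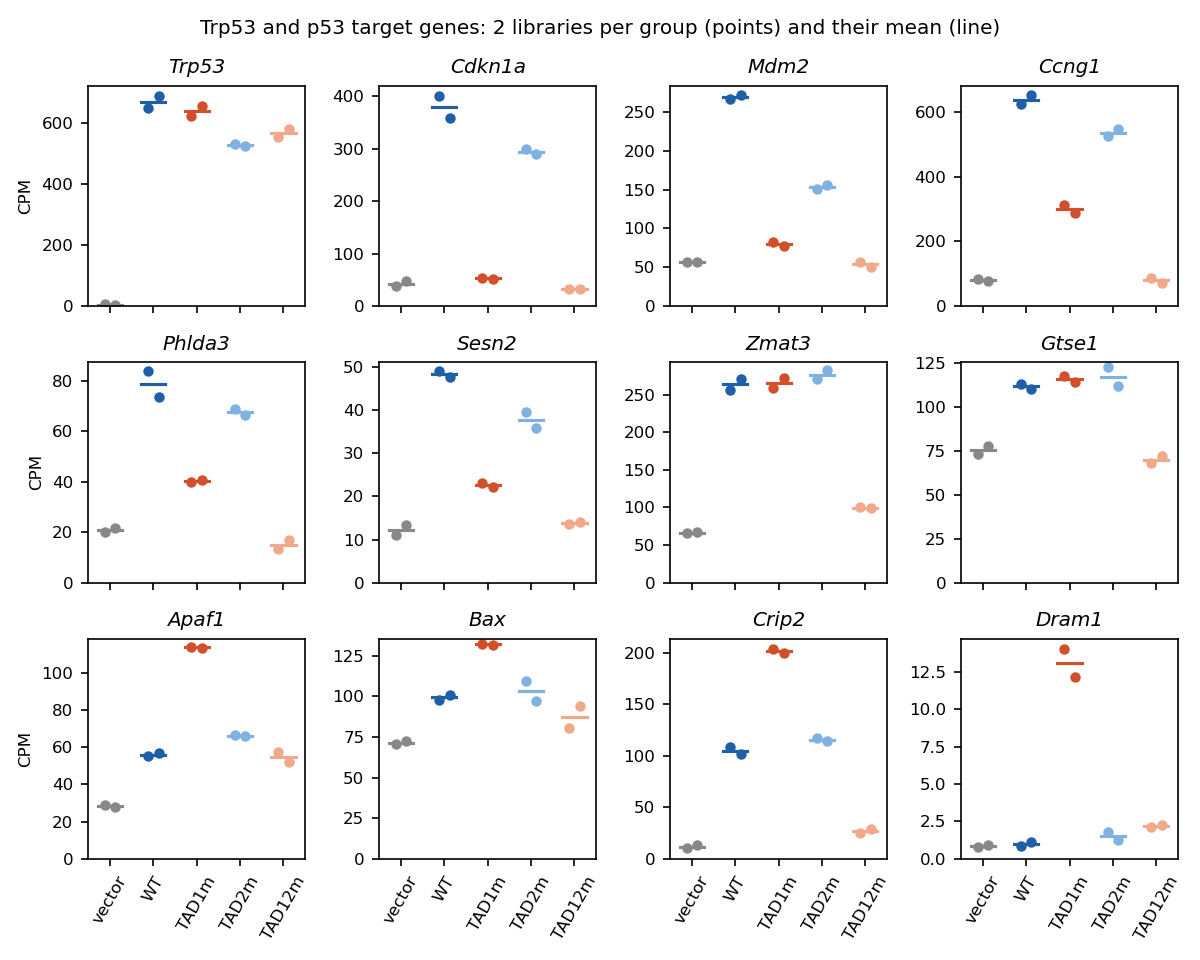
CPM (y axis, linear from 0) of Trp53 and 11 p53 target genes in each of the 10 libraries, with lines at group means. TAD1m libraries sit near vector for Cdkn1a and Mdm2, between vector and p53WT for Ccng1, Phlda3 and Sesn2, level with p53WT for Zmat3 and Gtse1, and above p53WT for Apaf1, Bax, Crip2 and Dram1.

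Cell death genes split. Of 19 tested, 5 rose and 10 fell (median -0.27), where 20.4% of all genes rose and 18.7% fell. Apaf1, the core of the caspase-activating apoptosome, stood at 29.1 and 28 CPM with vector, 55 and 56.9 with p53WT and 114 and 113 with TAD1m. Each TAD1m library was above each p53WT library, and each of those above vector (1.02 ± 0.07 TAD1m minus p53WT, adjusted p = 3.88e-09). Bax, which opens the outer mitochondrial membrane, rose from 98.1 and 101 CPM to 133 and 132 (0.41 ± 0.07); 12.2% of its exon bases are shared with another gene model, so reads there can count for either. Siva1, a death receptor adaptor, rose by 0.63 and Bcl2l11, the BH3 protein BIM, by 0.61. Neither was called higher with p53WT than with vector. Those log2 differences were 0.28 (adjusted p = 0.115) for Siva1 and -0.29 (adjusted p = 0.0317) for Bcl2l11. On the other side, Phlda3, which blocks AKT at the membrane, fell from 83.8 and 73.5 CPM to 39.8 and 40.8 (-0.96 ± 0.09) with vector at 20.2 and 21.5. Pmaip1, the BH3 protein NOXA, fell from 229.5 and 226 CPM to 138 and 128, and vector was at 139.5 and 136. Ei24, an endoplasmic reticulum protein, fell to 64.8 and 57.6 CPM from 112 and 108, with vector at 65.3 and 57.3. Dcxr, a reductase of sugars and dicarbonyls rather than a death gene, fell by 2.31 on the log2 scale, from 45.7 and 35.1 CPM to 8.79 and 7.55. Zmat3, an RNA-binding splicing regulator, was above vector with both forms, at 257 and 271 CPM with p53WT, 259 and 272 with TAD1m and 65.6 and 67.2 with vector. The 95% interval of the difference between the forms ran from -0.11 to 0.12. Casp6, an effector caspase, differed by 0.11 (95% interval -0.08 to 0.29).

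The metabolism and stress list had most members called in both directions, 11 higher and 16 lower of 30 (median -0.22). Dram1, a lysosomal membrane protein that promotes autophagy (chr10:88322804-88357075), was near the detection level without TAD1m: 0.766 and 0.92 CPM with vector and 0.877 and 1.09 with p53WT, against 14 and 12.1 with TAD1m (3.73 ± 0.21, adjusted p = 8.47e-10). Crip2, a LIM domain protein, stood at 10.9 and 13 CPM with vector, 109 and 101 with p53WT and 204 and 200.1 with TAD1m (0.94 ± 0.07). Gls2, the liver-type glutaminase, rose from 8.01 and 9.23 CPM to 17.1 and 16.9 with vector at 11.6 and 9.47, so its p53WT libraries did not exceed vector. Ak1, an adenylate kinase, fell from 36.1 and 31.6 CPM to 10.9 and 11.1, with vector at 0.561 and 0.92. Ephx1, an epoxide hydrolase, fell from 244 and 261 to 112 and 119 CPM (-1.12 ± 0.06). Sesn2, a stress sensor that restrains mTORC1, fell from 49.3 and 47.7 to 23.1 and 22.3 CPM (-1.10 ± 0.09), and Gdf15, a stress cytokine, from 14.2 and 9.16 to 2.37 and 2.41 (-2.29 ± 0.34). Tigar, a phosphatase that slows glycolysis, differed by -0.08 (95% interval -0.24 to 0.07). Sidt2, a lysosomal protein with 10.4% of exon bases shared with another gene model, differed by 0.06 (-0.06 to 0.18). Between p53WT and vector the log2 differences were -0.13 for Tigar, which p53WT did not raise, and 1.28 for Sidt2.

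Repair genes counted as p53 targets also divided, 4 higher and 5 lower of 13, with a median of 0.04; without p53WT replicate 2 or TAD1m replicate 1, 3 were lower. Of the 4 that rose, 3 are named here and are also used when DNA is copied: Pcna, the sliding clamp, rose from 131 and 129.6 CPM to 201 and 192 (0.59 ± 0.06), and the translesion polymerases Polh and Rev3l by 0.55 and 0.53. Each of these 3 was lower with p53WT than with vector, by log2 differences of -0.82, -0.72 and -0.43. Gadd45b fell from 48.2 and 38.3 CPM to 17.6 and 15.8, a log2 difference of -1.37 ± 0.21. Ercc5, an excision repair nuclease, fell from 57.4 and 59 CPM to 40.8 and 40.7, and vector was lower still at 18.4 and 19.3. Polk, a further translesion polymerase, fell by 0.28 on the log2 scale.

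Genes of the cell cycle moved in 1 direction. Of 43 S phase genes 41 rose and 0 fell (median 0.76), of 42 G2/M genes 42 rose (median 0.91), and of 26 repair and checkpoint genes 25 rose (median 0.73); over all genes 20.4% rose. Tested against a fold of 1.5, 20 of the 43, 36 of the 42 and 9 of the 26 were called. Against vector the p53WT medians were -0.97, -1.14 and -0.97, and those of TAD1m -0.16, -0.21 and -0.18. Rrm2, the small subunit of ribonucleotide reductase, stood at 231 and 234 CPM with p53WT, 496 and 478 with TAD1m and 429 and 431 with vector, so that the p53WT pair stood apart below the others (1.07 ± 0.05, adjusted p = 1.52e-10). Pola1, of the primase complex, Tk1, thymidine kinase, and Lig1, which joins Okazaki fragments, rose by 0.99, 0.97 and 0.97.

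In mitosis, Cenpe, the kinetochore motor, stood at 110.0 and 132 CPM with p53WT, 336 and 327 with TAD1m and 280.4 and 275 with vector (1.46 ± 0.07, adjusted p = 3.78e-10). Both TAD1m libraries were above both vector libraries, which were above both of p53WT. Hmmr, of the spindle, rose by 1.296, Ndc80, which ties kinetochores to microtubules, by 1.15, and Nusap1, of the central spindle, by 1.15. In the repair and checkpoint list Brip1, the helicase partner of BRCA1, rose from 14.4 and 15.2 CPM to 32.1 and 31.8 (1.11 ± 0.09), and Palb2 and Fancd2, of the BRCA2 and Fanconi anaemia pathways, by 1.05 and 0.99.

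Promoters of G2/M genes often carry the cell cycle genes homology region (CHR, TTTGAA, searched on both strands), the site through which the DREAM complex, acting downstream of p21, represses them (background, not measured here). It was in 11 of 35 G2/M windows (31.43%, 33 of 42 genes having a window), in 6 of 42 S phase windows (14.29%, 36 of 43 genes) and in 15.99% of all windows. Examples with 2 copies are the windows of Cdk1 (chr10:69352913-69353032, minus strand), the mitotic kinase, and Mki67 (chr7:135716380-135716535, minus strand), the Ki-67 proliferation marker, which were chosen for their motifs; capitals mark the CHR, and each stretch ends at the base before the annotated start.
Cdk1: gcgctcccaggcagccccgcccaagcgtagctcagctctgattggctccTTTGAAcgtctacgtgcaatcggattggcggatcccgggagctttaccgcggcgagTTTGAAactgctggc
Mki67: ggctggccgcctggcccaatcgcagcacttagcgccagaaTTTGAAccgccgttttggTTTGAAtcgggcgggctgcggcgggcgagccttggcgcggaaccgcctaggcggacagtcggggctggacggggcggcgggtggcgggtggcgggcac
Cdk1 rose from 94.1 and 99.1 CPM with p53WT to 169.6 and 164 with TAD1m, with vector at 219.9 and 205, and Mki67 from 347 and 377 to 795 and 781, with vector at 899 and 878. In both genes the TAD1m pair lay between p53WT and vector, nearer to vector.

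**Figure D3:**
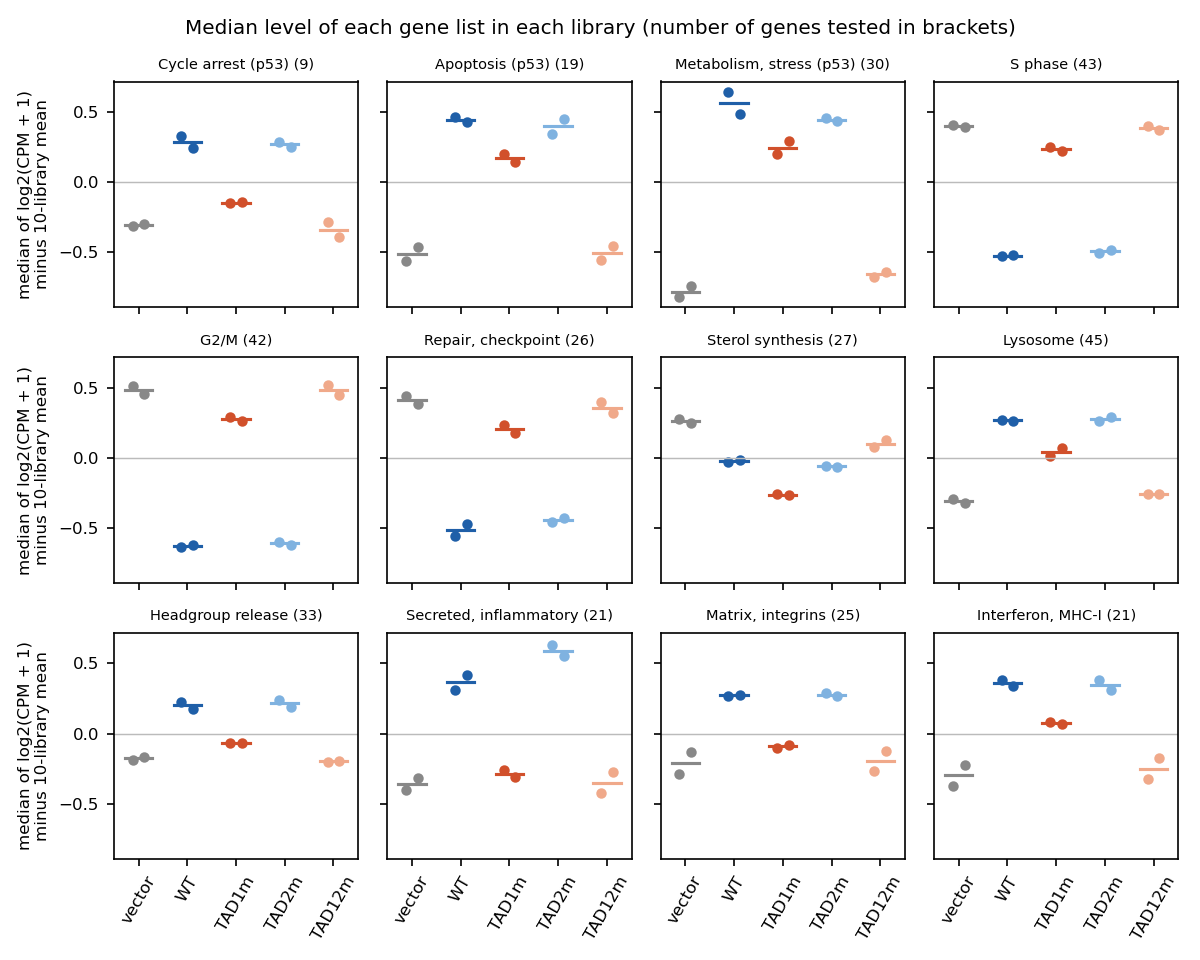
Median over list members of log2(CPM + 1) minus the 10-library mean of each gene (y axis), for 12 lists in each of the 10 libraries (points; lines, group means). TAD1m lies above p53WT for S phase, G2/M and repair genes, and below it for the other 9 lists; for sterol synthesis it lies below every other group.

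The title of the series concerns p53 and phospholipid headgroups, and its other cells had Pcyt2 edited, the rate-limiting enzyme of the ethanolamine branch that makes phosphatidylethanolamine. Pcyt2 (chr11:120610087-120617936) stood at 81.8 and 75.7 CPM with p53WT, 90.0 and 95.1 with TAD1m and 91.6 and 98.7 with vector. TAD1m was above p53WT in both libraries by 0.23 ± 0.08 (adjusted p = 0.0218), a small difference whose call was lost without p53WT replicate 2 (adjusted p = 0.175), TAD1m replicate 1 (0.0626) or TAD1m replicate 2 (0.184), and with DESeq2 (0.056). Etnk1, the ethanolamine kinase ahead of it, differed by 0.18 ± 0.06 (adjusted p = 0.0287), a call lost without p53WT replicate 1 (0.247), TAD1m replicate 1 (0.113) or TAD1m replicate 2 (0.165), and with RLE factors (0.0562) or DESeq2 (0.0885). Selenoi, the ethanolaminephosphotransferase that completes the branch, rose from 90.4 and 101 CPM to 120.2 and 122 (0.34 ± 0.06, adjusted p = 0.000432), with vector at 139 and 131. In all, 4 of 9 genes rose and 2 fell, and when any 1 of the 4 libraries was left out 1 or 2 rose and at most 1 fell.

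The choline branch, which makes phosphatidylcholine, had more members lower: 5 of 9 genes fell and 2 rose (median -0.36), or 1 when any 1 of the 4 libraries was left out. Chka, choline kinase alpha, fell from 421 and 404 CPM to 281 and 271 (-0.58 ± 0.05, adjusted p = 1.64e-07), where vector stood at 268 and 262. Pcyt1a, the rate-limiting step, fell from 262 and 277 CPM to 164 and 176 (-0.66 ± 0.06, adjusted p = 1.05e-07), and vector stood at 156 and 161. For both, the TAD1m pair was near the vector pair and clear of the p53WT pair. Chpt1, the last enzyme of the branch, fell by 0.37 on the log2 scale and Slc44a2, a choline carrier, by 0.36. Flvcr1, a choline and haem carrier with 15.6% of exon bases shared with another gene model, rose by 0.64.

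**Figure D4:**
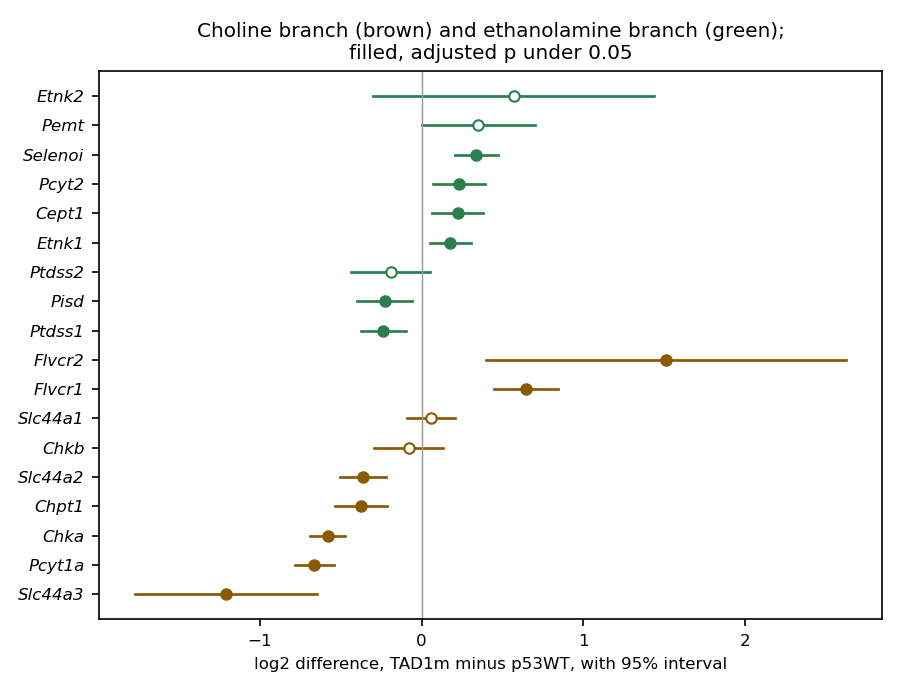
Log2 difference TAD1m minus p53WT (x axis) with 95% intervals for the 9 tested genes of each phospholipid branch; filled points passed adjusted p under 0.05. Chka and Pcyt1a lie at -0.58 and -0.66, while Pcyt2, Etnk1 and Selenoi lie between 0.18 and 0.34.

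Among 33 enzymes that release phospholipid headgroups or acyl chains 18 fell and 5 rose (median -0.30), or 2 rose without p53WT replicate 1 or TAD1m replicate 2. Pla1a, a phospholipase of phosphatidylserine, fell from 17.9 and 16 CPM to 3.58 and 4.88, and Sphk1, which makes sphingosine 1-phosphate, from 27 and 24.5 to 6.88 and 8.18, both to the vector level or below it (3.78 and 4.14 and 8.83 and 10.3). Pld3, a lysosomal exonuclease of the phospholipase D family, fell by 0.78 on the log2 scale. Smpdl3b, a membrane phosphodiesterase, rose to 17.2 and 21 CPM from 6.07 and 5.33 (1.74 ± 0.17), above the 8.83 and 8.41 of vector, and Pla2g12a, a secreted phospholipase, rose by 0.43. Of 21 lipins and acyltransferases 12 fell and 5 rose. Lpin1, a phosphatidate phosphatase, fell from 88.6 and 94.7 CPM to 56.5 and 59 with vector at 30.4 and 28.4. Dgat1 and Dgat2, which close triglyceride synthesis, fell by 0.73 and 0.79 on the log2 scale, and Gpam and Gpat4, which open it, rose by 0.41 and 0.30.

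Of 27 sterol synthesis genes 15 fell and 5 rose (median -0.28), and when any 1 of the 4 libraries was left out between 1 and 3 rose. Against vector 22 of the 27 were lower with TAD1m, where 17.5% of all genes were, and 16 with p53WT, where 25.1% were; these counts share the vector libraries, and their difference was not tested. Mvd, of the mevalonate pathway, stood at 94.1 and 93.2 CPM with p53WT, 67.4 and 70.1 with TAD1m and 105 and 114 with vector (-0.45 ± 0.09, TAD1m minus p53WT). Hsd17b7, a later sterol reductase, fell from 85.9 and 95.3 CPM to 57.1 and 58.2 (-0.65 ± 0.08).

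Lysosome genes were lower with TAD1m for 26 of 45 and higher for 8 (median -0.25), or 5 without p53WT replicate 2 or TAD1m replicate 2. Ctsd, a cathepsin with 34.4% of exon bases shared with another gene model, fell by 0.64 on the log2 scale. The proton pump subunit Atp6v0e and the membrane protein Laptm4a fell by 0.62 and 0.60. Ctsf, another cathepsin, stood at 0.459 and 0.197 CPM with vector and rose from 9.58 and 7.65 with p53WT to 14.5 and 14.1 with TAD1m. Man2b1, a mannosidase, went from 184 and 182 CPM to 235 and 253 (0.42 ± 0.06), and Lipa, the acid lipase, rose by 0.53. Of 29 autophagy genes 15 fell and 1, Dram1, rose. Atg9b, of the lipid scramblase family that feeds the early autophagosome, stood at 63 and 57.5 CPM with p53WT, 15.9 and 19 with TAD1m and 1.84 and 2.43 with vector. Map1lc3a and Gabarapl2, which coat the autophagosome, fell by 1.16 and 0.90 on the log2 scale, and Atg7, which activates them, by 0.69.

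Stress response genes under ATF4 went in both directions, 14 of 34 higher and 6 lower (median 0.14); without p53WT replicate 1 or TAD1m replicate 1, 8 and 9 were higher. Cth, of cysteine synthesis, rose from 36.1 and 40.9 CPM to 88.2 and 80.7 (1.14 ± 0.09), above the 54.8 and 47.7 of vector. Slc7a5, an amino acid carrier, rose by 0.67, Psat1, of serine synthesis, by 0.50, and Shmt2, of mitochondrial one-carbon metabolism, by 0.48. Atf3, a stress transcription factor, and Ddit4, an inhibitor of mTORC1, fell by 0.93 and 0.84 on the log2 scale. Of 24 RAS-MAPK feedback genes 10 fell and 1, Spred2, rose. Dusp1, a MAP kinase phosphatase, fell from 54.8 and 56 CPM to 13.1 and 13, near the 10.3 and 9.47 of vector (-2.09 ± 0.09, adjusted p = 3.10e-11). Spred3, an inhibitor of RAS signalling, and Ier3, an early response gene, fell by 2.19 and 1.15.

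Of 21 secreted inflammatory genes 14 fell and 3 rose (median -0.59), or 1 rose without TAD1m replicate 2. Ccl20, a chemokine, stood at 202 and 194 CPM with p53WT, 59.3 and 60.1 with TAD1m and 107 and 106 with vector, so TAD1m was below both of the others (-1.73 ± 0.06 from p53WT, adjusted p = 4.40e-12). Igfbp7, a secreted growth factor binding protein, fell from 419 and 380.2 CPM to 147 and 149. C3, the central complement component, rose from 7.33 and 8.2 CPM to 16.6 and 17.8, with vector at 1.48 and 0.986.

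Of 25 matrix and integrin genes 13 fell and 2 rose (median -0.36). Thbs1, thrombospondin-1, an inhibitor of blood vessel growth (chr2:118111876-118127133), stood at 370.0 and 382 CPM with p53WT, 44 and 43.1 with TAD1m and 63.2 and 57.6 with vector (-3.11 ± 0.08 from p53WT, adjusted p = 1.52e-13). Sparc, a collagen-binding glycoprotein, and Itgb6, an epithelial integrin chain, fell by 1.05 and 1.49 on the log2 scale. Col18a1, the collagen that yields endostatin, and Itga6, a laminin receptor chain, rose by 0.71 and 0.61. Of 15 matrix proteases and inhibitors 6 fell, among them Timp2 (from 1179.7 and 1193 CPM to 489.9 and 536), the membrane protease Mmp14 (from 291 and 281 to 131 and 136) and Adam8 (by 0.93), while Mmp11 rose from 16 and 14.3 to 25.6 and 29.8.

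Of 17 keratin and junction genes 9 fell and 2 rose. Krt7, a ductal keratin, stood at 569.8 and 532 CPM with p53WT, 157 and 160.2 with TAD1m and 155 and 164 with vector. Krt18 fell from 3003 and 2877 CPM to 1791 and 1837 and Krt8 by 0.73 on the log2 scale, and Dsp, the desmosome's desmoplakin, by 0.43. Summed over the 12 ductal markers, the level was 12329 and 11766 CPM with p53WT, 7065 and 7159 with TAD1m and 8498 and 8703 with vector. Muc1, a membrane mucin, stood at 693 and 739 CPM with p53WT, 333 and 355 with TAD1m and 627 and 644 with vector, TAD1m being the lowest. Esrp2, an epithelial splicing factor, rose by 0.42, and Pkp3, a plakophilin, by 1.53. Of 12 mesenchymal genes 5 rose and 5 fell, or 3 rose without p53WT replicate 2 or TAD1m replicate 1 and 3 fell without p53WT replicate 1. The transcription factor Zeb1 rose by 0.43 and the receptor kinase Axl by 0.24, while Tgfb2, Cald1 and the cadherin Cdh2 fell by 0.93, 0.84 and 0.47.

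Of 21 interferon and MHC class I genes 8 fell and 2 rose. H2-K1, a class I heavy chain, stood at 194 and 173 CPM with p53WT, 72 and 73.4 with TAD1m and 117 and 125 with vector, so TAD1m was the lowest. H2-K1 shares sequence with other class I genes, and how reads were divided among them is not given in the sources used here. Tap1, the peptide transporter, stood at 0 and 0.131 CPM with vector, 13.6 and 12.7 with p53WT and 7.11 and 6.41 with TAD1m, which places TAD1m between the others. Of 6 carboxylesterase 2 genes 5 fell, among them Ces2g from 123 and 129 CPM to 72.9 and 72.6; this family also shares sequence.

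Extremes were taken among called genes with a mean of at least 5 CPM over the 4 libraries and no overlap between the groups. The 10 of highest difference (Dram1 and those named next) were also called higher with TAD1m than with vector. That comparison reuses the TAD1m libraries by which they were chosen, so it gives them no separate support. Ntn1, the axon guidance cue netrin-1 (chr11:68209364-68386826), stood at 0.102 and 0.394 CPM with vector, 1.06 and 0.547 with p53WT and 14 and 17 with TAD1m (4.23 ± 0.25, adjusted p = 1.64e-09). Add2, a cytoskeletal adducin, stood at 2.65 and 3.22, 3.32 and 3.14 and 33.9 and 30.1 CPM in the same order (3.30 ± 0.14). Jag2, a Notch ligand, stood at 12 and 20.4, 20.1 and 19 and 83.7 and 88.4 CPM, and Pde5a, a cGMP phosphodiesterase, at 7.4 and 6.84, 9.39 and 9.77 and 40.9 and 40.2. In each of these 4 genes both TAD1m libraries stood apart above every vector and p53WT library. Rasl11a, a small GTPase, Mme, the protease neprilysin, Robo1, a guidance receptor, and Eif4e3, a cap-binding protein with 14.8% of exon bases shared with another gene model, rose by 2.21, 2.20, 2.04 and 2.01. Matn4, a matrix matrilin, was at 1.44 and 1.16 CPM with p53WT and 8.85 and 10.7 with TAD1m.

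Within the same limits, the 10 genes of lowest difference were called higher with p53WT than with vector, Thbs1 among them. They were chosen by their level in the same p53WT libraries, so this too gives no separate support. Stox2 had no count in either TAD1m or either vector library, and 10.3 and 11.7 CPM with p53WT, at least 121.3-fold higher than the floor of 3 counts over the TAD1m group. Ano3, an anoctamin, also had no count with TAD1m or vector, and 8.89 and 11.9 CPM with p53WT, at least 114.5-fold higher than that floor. Notch3, the receptor, stood at 0.153 and 0.197 CPM with vector, 14 and 11.8 with p53WT and 0.752 and 0.317 with TAD1m. Celf5, an RNA-binding protein, Ndnf, a secreted neurotrophic factor, Crct1, of the epidermal differentiation cluster, Sytl1, a vesicle tether, and Cryab, a small heat shock protein, fell by 4.13, 3.98, 3.40, 3.07 and 3.05 on the log2 scale. Another, a gene model without a name of its own, shares 74.0% of its exon bases with Thbs1.

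The same change was also made where the second domain was mutated, as TAD12m minus TAD2m, which shares no library with TAD1m minus p53WT. There 7312 genes were called (48.5%), 3575 higher (23.7%) and 3737 lower (24.8%). The difference between both effects, (TAD1m minus p53WT) minus (TAD12m minus TAD2m), was called for 2581 genes (17.1%), 1702 above 0 (11.3%) and 879 below (5.83%). The count depended on single libraries: it was 1587 without TAD1m replicate 2, 1596 without TAD2m replicate 1, and between 1731 and 2827 without any other. Only libraries with p53 were left out, none of vector. TAD2m itself differed from p53WT in 43 genes (0.285%), 30 higher (0.199%) and 13 lower (0.0862%), and 909 had an unadjusted p under 0.05. Trp53 was among the lower ones, at 530 and 525 CPM with TAD2m against 649 and 686 with p53WT (-0.34 ± 0.06, adjusted p = 0.0242). With TAD12m it stood at 552 and 580 CPM, and its difference of effects was -0.17 ± 0.09 (adjusted p = 0.225). Whether the lower Trp53 RNA bears on the differences between effects was not tested.

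In the p53 target lists the difference was above 0, where 11.3% of all genes were, for 3 of 11 feedback genes, 3 of 9 arrest genes and 3 of 13 repair genes, and below 0 for 1 repair gene, Fancc. Of 19 apoptosis genes 14 fell with the second domain mutated, where 24.8% of all genes did. Their difference between effects was above 0 for 13 and below 0 for 0. Of 30 metabolism and stress genes 22 fell and 2 rose, with the difference above 0 for 21 and below 0 for 0. Zmat3 had a mean of 277 CPM with TAD2m and 99.6 with TAD12m, where p53WT and TAD1m were level (difference of effects 1.48 ± 0.08, adjusted p = 1.73e-09). Ccng1 had means of 536 and 79.7 CPM, so its fall with the second domain mutated was the larger (difference of effects 1.66 ± 0.11, adjusted p = 2.05e-07). Trp53inp1 had means of 122 and 8.21 CPM, Crip2 of 116 and 27.3 and Ctsf of 9.54 and 0.561, and their differences of effects were 2.59, 3.03 and 4.79. Cdkn1a had means of 295 and 32.6 CPM, and its difference of effects was 0.35 ± 0.12 (adjusted p = 0.0515), which passed with no filter (0.00472), only the groups compared (0.0169), RLE factors (0.0446) or without p53WT replicate 1 (0.034). For Mdm2 it was -0.25 ± 0.09 (adjusted p = 0.0725, or 0.0135 without TAD12m replicate 2) and for Plk2 -0.0024 ± 0.07 (adjusted p = 0.987). Ces2e stood at 30.8 and 33.8 CPM with p53WT, 22.8 and 26 with TAD1m and a mean of 41.5 with TAD2m, and had no count in either TAD12m library. Its TAD1m minus p53WT call was lost without p53WT replicate 2 (adjusted p = 0.0552) or TAD1m replicate 1 (0.0807).

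**Figure D5:**
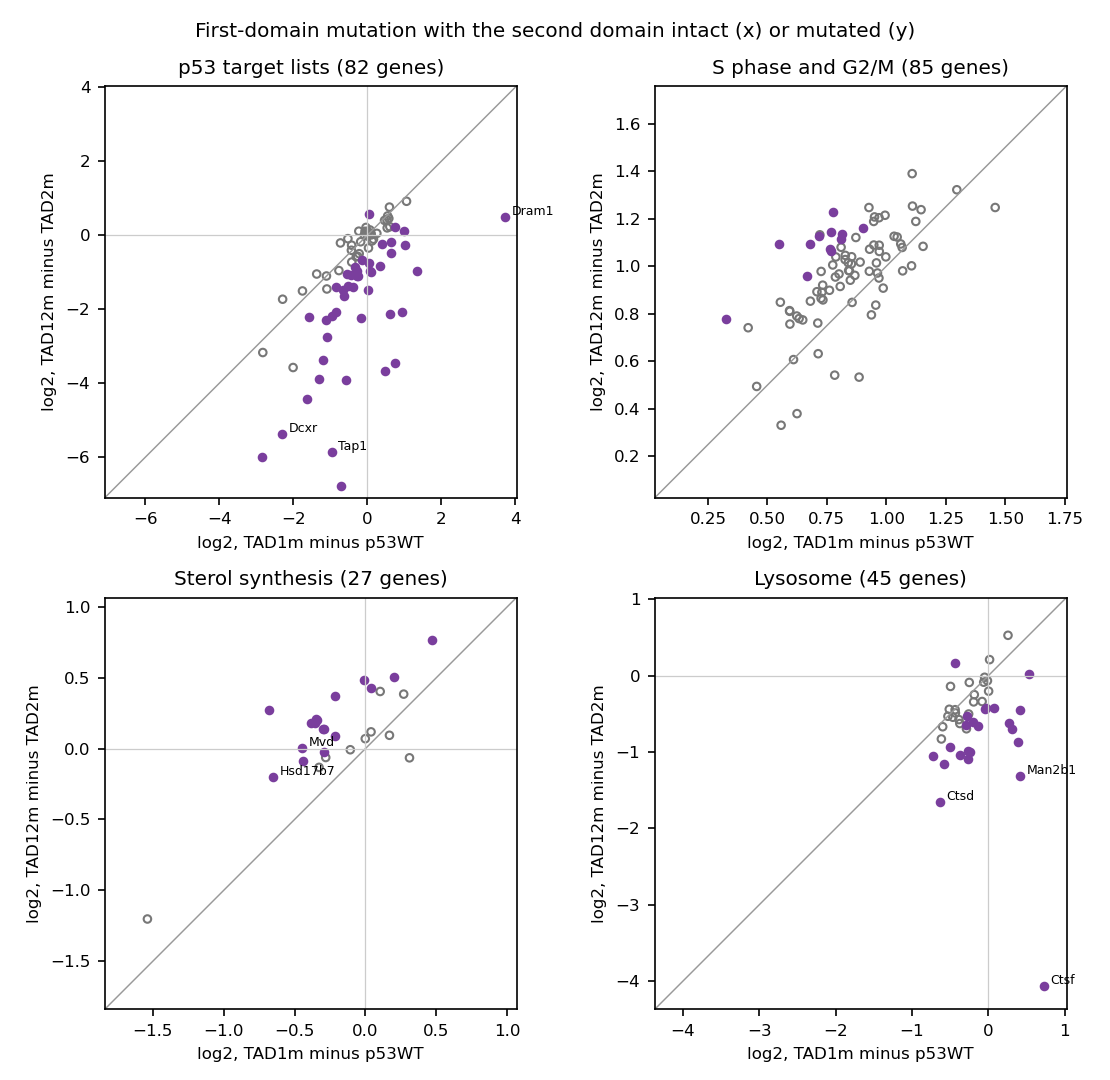
Log2 effect of mutating the first domain with the second intact (TAD1m minus p53WT, x axis) or mutated (TAD12m minus TAD2m, y axis) for members of p53 target, S phase and G2/M, sterol synthesis and lysosome lists; filled points passed adjusted p under 0.05 for the difference between effects, and the line marks equal effects. Filled p53 target points lie below the line except Fancc, and filled sterol points lie above it.

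With the second domain mutated 42 of 43 S phase and 42 of 42 G2/M genes rose (medians 0.89 and 1.09), and the difference between effects was called for 4 and 8 of them, each below 0, where 5.83% of all genes were. In sterol synthesis 11 of 27 rose and 2 fell, and the difference was below 0 for 17 and above 0 for 0. Of 45 lysosome genes 35 fell and 1 rose, with the difference above 0 for 22 and below 0 for 1. Both branches of phospholipid synthesis held 1 gene each past the test of the difference among the 9 genes of each; in the choline branch this was Pcyt1a (0.47 ± 0.08, adjusted p = 0.000569), and in the ethanolamine branch Etnk1 (0.48 ± 0.09, adjusted p = 0.000842). For Pcyt2 the difference was -0.02 ± 0.11 and for Chka -0.04 ± 0.07, with adjusted p of 0.93 and 0.798. Among called genes with a mean of at least 5 CPM over the 8 p53 libraries, the lowest differences between effects included those of Mucl3, a mucin-like gene, Col6a2, a collagen, and Hr, a transcriptional corepressor, at -1.74, -1.62 and -1.57.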

How the data were processed

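RNA-seq libraries (poly(A)-selected, strand-specific kit, per the labels' protocols) were aligned with STAR 2.6.1c to mm10 and counted with HOMER, per the submitters' processing notes. The authors deposited expected counts per gene: per the file headers, reads on either strand were counted over GENCODE vM25 exons without normalization, and values ending in 0.5 were rounded up here. From them, genes were filtered (filterByExpr), scaled by TMM and fitted over all 10 libraries with edgeR 4.0.16 (quasi-likelihood test; limma 3.58.1, R 4.3.3) without a replicate block. All adjusted p-values in the text are Benjamini-Hochberg values of this test over 15075 genes, called under 0.05; the 1.5-fold test is edgeR's glmTreat. CPM are TMM-scaled. Libraries were not treated as paired by replicate number. Correlations of replicate differences between groups ran from -0.204 (p53WT with TAD12m) to 0.3543 (vector with TAD12m).

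Gene lists and members were chosen with earlier results of these data known. Text genes were fixed targets, the called list members of largest difference with a mean of at least 5 CPM, uncalled p53 targets of highest level, and the extremes over all genes (means of at least 5 CPM over the 4 libraries) and of the difference of effects (over the 8 p53 libraries); Cdk1, Mki67 and Fancc were added for their motifs or values. Genes whose call an alternative ended, and unnamed gene models, were mostly left out, and a few genes are not reported here. Alternatives were DESeq2 1.42.0, other scaling, filters and rounding, only the groups compared, a replicate block, and mitochondrial genes and Trp53 removed. Each library of the groups in a comparison was also left out in turn, but no vector library was. Figures used Python 3.11.15 and matplotlib 3.10.9.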

Additional observations from a re-analysis of the deposited data

Results flagged for a closer look

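The effect of mutating the first transactivation domain differed between cells with the second domain intact and cells with it mutated. The test was of the difference itself, (TAD1m minus p53WT) minus (TAD12m minus TAD2m), and called 2581 genes. The values below are that difference on the log2 scale for the genes named above that passed it, except Matn4 and Ces2e. These also passed, above 0, but had 1 count and 0 counts over both TAD12m libraries, so their fitted values depend on the prior count and are not given. A value above 0 means that TAD1m stood higher against p53WT than TAD12m did against TAD2m. As given above, Trp53 RNA was lower with TAD2m than with p53WT, and whether this bears on the values was not tested.

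Among p53 targets it was above 0 for Tap1 (4.91), Dram1 (3.24), Dcxr (3.07), Crip2 (3.03), Ak1 (2.82), Trp53inp1 (2.59), Ccng1 (1.66), Zmat3 (1.48), Apaf1 (1.297), Ei24 (1.23), Phlda3 (1.21), Ephx1 (1.16), Pml (1.13), Casp6 (1.11), Sidt2 (1.03), Ctsd (1.02), Gls2 (0.86), Ercc5 (0.85), Lpin1 (0.83), Siva1 (0.82), Polk (0.82), Gtse1 (0.80), Bax (0.65), Btg2 (0.63) and Ddit4 (0.55). Among phospholipid, lysosome and autophagy genes it was above 0 for Ctsf (4.79), Atg9b (3.34), Smpdl3b (1.92), Man2b1 (1.73), Pla2g12a (0.55), Lipa (0.50), Etnk1 (0.48) and Pcyt1a (0.47). Among stress response, secreted, matrix, junction, MHC class I and carboxylesterase genes it was above 0 for C3 (4.27), Mmp11 (2.28), Cald1 (1.65), Ces2g (1.58), Col18a1 (1.33), Itga6 (0.89), Mmp14 (0.79), Axl (0.51), Esrp2 (0.49), Cth (0.46), Spred2 (0.41) and Cdh2 (0.34). Of the other genes with the highest or lowest differences between TAD1m and p53WT, it was above 0 for Ntn1 (5.16), Add2 (3.98), Sytl1 (3.42), Crct1 (2.26), Robo1 (2.15), Eif4e3 (1.94), Cryab (1.85), Pde5a (1.71), Jag2 (1.69), Rasl11a (1.66) and Mme (1.44). It was below 0 for Mucl3 (-1.74), Col6a2 (-1.62), Hr (-1.57), Ndnf (-1.33), H2-K1 (-0.64), Ccl20 (-0.64), Sparc (-0.59), Fancc (-0.54), Muc1 (-0.49), Hsd17b7 (-0.45), Mvd (-0.45), Thbs1 (-0.36) and Psat1 (-0.33).

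Other settings moved some calls. Cdkn1a (0.35, adjusted p = 0.0515) passed under 4 of them, named above. Leaving out single libraries ended some of these calls. Those of Cdh2, Cth, Ddit4, Esrp2, Hsd17b7, Mvd, Ndnf, Psat1 and Siva1 were lost without 1 or more of the libraries of p53WT, TAD1m and TAD2m, with adjusted p between 0.0512 and 0.111. Those of Jag2 (adjusted p up to 0.0966), Thbs1 (up to 0.102) and Fancc (up to 0.114, and 0.174 with DESeq2) were lost in most such fits, and that of Jag2 also with no filter on low counts (0.0523).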

How the results depend on the processing

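With each library left out in turn, genes called between TAD1m and p53WT numbered between 4156 and 4796 (higher between 2107 and 2485, lower between 2049 and 2311), those called between TAD12m and TAD2m between 5594 and 7019 (higher between 2585 and 3405, lower between 3009 and 3614), and those called in the difference between effects between 1587 and 2827 (above 0 between 1140 and 1722, below 0 between 403 and 1105). Libraries were left out only from the groups that each comparison uses, and never from vector. DESeq2 called 1691 genes in the difference between effects, 473 of them below 0, and the cause was not tested. Testing against a fold of 1.5 lowered the TAD1m minus p53WT count to 961 (464 higher, 497 lower), since the null is wider. With DESeq2 that comparison had 4354 calls, with library totals alone 6117 and with only the groups compared 6884; of these 49.33%, 60.13% and 47.73% were higher, against 52.22% of the 5889. The median of the mucin and trefoil list, -0.41, was 0.25 with a filter of 5 CPM, which tests fewer genes, 0.0347 without p53WT replicate 2 and -0.7817 without p53WT replicate 1. Medians lay above 0 in 7 of 25 lists, and in 5 to 7 when a library was left out. The replicate block gave 5787 calls between TAD1m and p53WT, 7214 between TAD12m and TAD2m and 2486 in the difference. Swapping the replicate numbers of TAD12m alone, against all other groups, was chosen after seeing the data. It gave 7070 calls between TAD12m and TAD2m and 2344 in the difference. Groups hold 2 libraries each, with 5 residual degrees of freedom over the 10. A left-out fit therefore assumes that the lone library varies like the others. Replicates did not vary alike in all groups. Their chi-square per degree of freedom was highest for TAD12m (7.49) and vector (6.1). It was lower for TAD2m (1.74), TAD1m (1.94) and p53WT (3.84). All p-values of the main fit rest on a spread shared by these groups. With only the groups compared, TAD1m minus p53WT calls went from 5889 to 6884, and TAD12m minus TAD2m calls from 7312 to 6885. Whether the unequal spread caused this was not tested.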

Other observations

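Gene groups not described above gave the following counts between TAD1m and p53WT. Of 23 endoplasmic reticulum folding genes 11 fell and 2 rose (median -0.17). Of 34 genes of the citrate cycle and pyruvate use 8 rose and 4 fell (median 0.02), and of 22 glycolysis genes 7 rose and 4 fell (median 0.06). Of 26 NRF2 and antioxidant genes 7 rose and 10 fell, of 20 fatty acid synthesis genes 6 rose and 6 fell, and of 16 lipid uptake genes 5 rose and 6 fell. Of 12 EGF ligands and receptors 3 rose and 6 fell, and of 19 pancreas and foregut transcription factors 5 rose and 3 fell. Of 11 mucin and trefoil genes 2 rose and 4 fell. Over all genes 20.4% rose and 18.7% fell.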
